A study of Saccharomyces cerevisiae with 22 samples.

Results

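The Hsp90 chaperone system of budding yeast was followed through its mRNAs while cells were moved between 30 and 37 °C. It was taken as the 10 genes HSC82, HSP82, STI1, CPR6, CPR7, AHA1, HCH1, SBA1, CDC37 and CNS1, picked by symbol in the annotation of the array, out of 5315 genes with a symbol. Each of the 10 had 1 probe, spotted at 2 places on the array, and stood well above background in both channels on 22 of 22 arrays. Wild-type cells of the laboratory strain BY4742 (mating type alpha) were compared on 2-colour oligonucleotide arrays with a common reference of RNA from untreated BY4742. For heat shock, cells growing at 30 °C in synthetic complete medium with glucose were pelleted and put into medium at 37 °C for 5, 15, 30, 45 or 60 min. For the opposite shift, named cold shock in the labels and cooling here, cells grown at 37 °C were pelleted and put into medium at 30 °C for the same times, and the 37 °C culture itself was time 0. Both series thus share pelleting and fresh medium, and within either series alone effects of these cannot be told apart from those of temperature. The untreated culture of the heat shock series was not analysed here, so heat shock was set against the common reference and cooling against the 37 °C culture. How far the reference lies from such an untreated culture was not estimated. Standard errors of changes against the reference leave it out. They are smaller than those between 2 conditions, for HSC82 0.0515 at 15 min of heat shock against 0.0728 at 15 min of cooling.

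Hsp90 is an abundant ATP-driven chaperone that acts late in folding, on proteins such as kinases, transcription factors and receptors that are already partly folded. Budding yeast makes it from a pair of nearly identical genes, HSC82, known for high expression in unstressed cells, and HSP82, known for its induction by heat through the heat shock factor Hsf1. Co-chaperones bring clients to Hsp90, set the pace of its ATPase cycle or bind its tail through tetratricopeptide (TPR) repeats.

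Values are log2 ratios of sample over reference, so that a value of 0 is the level of the untreated reference, and all ratios are relative to the average gene of an array. Unless another normalisation is named, they were computed with a separate intensity curve for each of the 48 print blocks of an array. Each condition had 2 arrays, called a where the sample carried Cy3 and b where it carried Cy5. The submitters describe them as separate cultures with the dyes exchanged, while the study's methods describe 2 biological replicates, each hybridised in both dye orders, and the sources used here do not settle which pair was deposited. The p-values therefore rest on a spread between 2 arrays, pooled over 11 conditions, which may be technical, and precision is limited by how few arrays there are. Across genes, arrays a and b of a condition correlated at 0.939 to 0.991. Median gene spot signals per array were 210 to 527 in the Cy5 channel and 195 to 394 in the Cy3 channel. A gene was called at a Benjamini-Hochberg adjusted p below 0.05 in limma's test and a change of more than 1.7-fold. Between 44.7% and 83.2% of all genes passed the adjusted p alone in the comparisons made, so the fold threshold decided most calls.

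Most of the Hsp90 genes were higher in heat shock than in the reference and lower in cooled cells than in the 37 °C culture. In heat shock 6 of 10 were called higher at 5 min, where 6.87% of all genes were, and 8 of 10 at 15 min, where 8.92% were. At 30 min 8 were called higher, with 7.7% of all genes, at 45 min 6, with 4.12%, and at 60 min 6, with 3.73%. The 6 that were called at every time were HSC82, HSP82, STI1, CPR6, AHA1 and HCH1. SBA1 and CDC37 joined them at 15 and 30 min, and CPR7 and CNS1 were not called at any time. The median change of the 10 genes rose from 1.05 at 5 min to 1.24 at 15 min and 1.53 at 30 min and stood at 1.22 and 1.09 at 45 and 60 min, against all-gene medians between -0.00 and 0.01.

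Cooling moved the same 6 genes the other way. HSC82, HSP82, STI1, CPR6, AHA1 and HCH1 were called lower than in the 37 °C culture at 5 min, where 3.2% of all genes were called lower, and again at 15, 30, 45 and 60 min, where 5.49%, 4.42%, 4.16% and 3.48% were. The median change of the 10 genes was -1.03, -1.84, -2.35, -2.37 and -2.27 at these times. SBA1, CDC37, CPR7 and CNS1 were not called at any of these times.

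**Figure D1:**
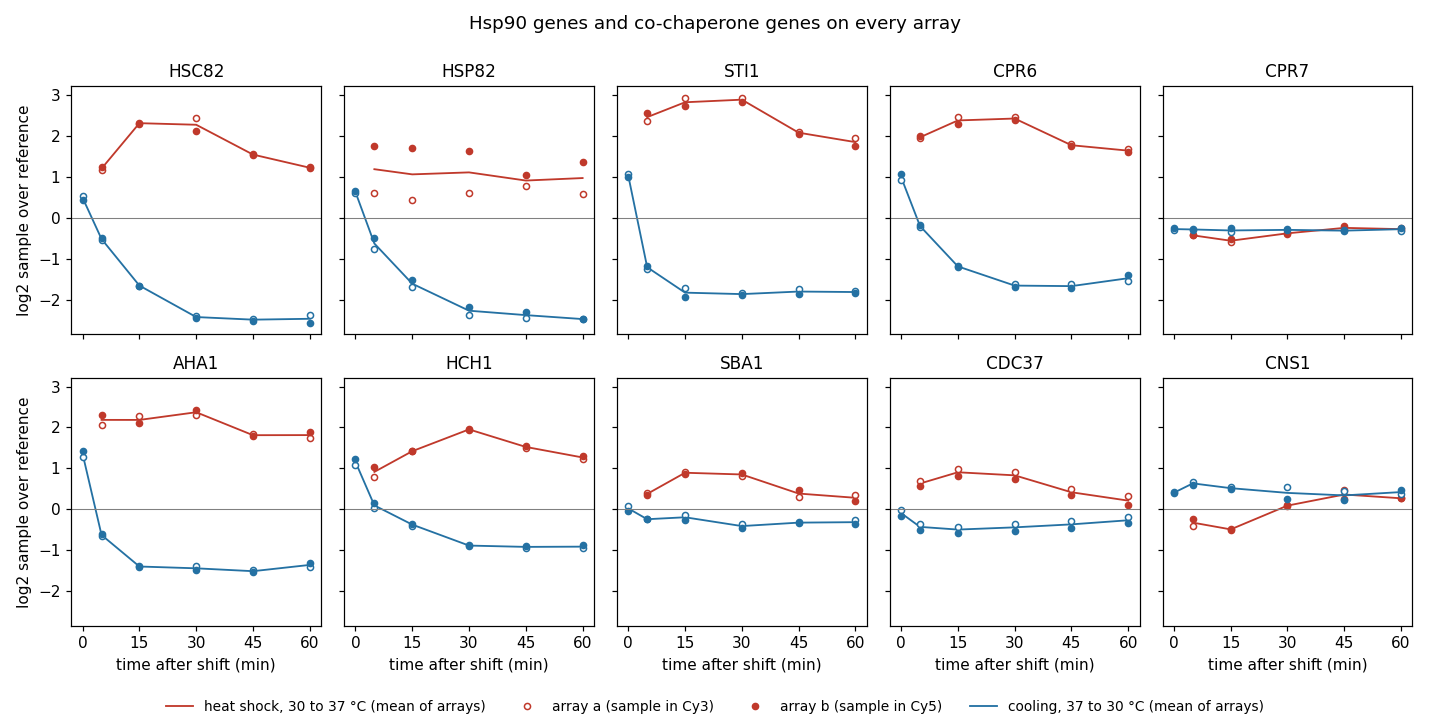
Log2 ratio of sample over the common reference (vertical axis) against minutes after the shift (horizontal axis) for each of the 10 genes, with heat shock in red, cooling in blue with the 37 °C culture at 0 min, open points for array a, filled points for array b and lines through their means. HSC82, HSP82, STI1, CPR6, AHA1 and HCH1 lie above 0 at every heat shock time and below 0 from 15 min of cooling on, CPR7 stays between -0.60 and -0.21 on all arrays, and the arrays of HSP82 lie furthest apart at 5, 15, 30 and 60 min of heat shock.

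HSC82, the gene known for the constant supply of Hsp90 (YMR186W), rose within 5 min and, with block curves, was highest at 15 and 30 min. In heat shock its values at 5, 15, 30, 45 and 60 min were 1.15, 2.32, 2.43, 1.53 and 1.23 on array a. On array b they were 1.25, 2.30, 2.11, 1.56 and 1.21. With block curves both arrays put 15 and 30 min above the other times without overlap. At 15 min the change was 2.31 (standard error 0.0515, adjusted p = 9.8e-16), a 4.95-fold rise. In the 37 °C culture HSC82 was at 0.53 and 0.44 on arrays a and b, below every heat shock value, and it was not called there (0.49, standard error 0.0515). At 5, 15, 30, 45 and 60 min of cooling it read -0.55, -1.65, -2.40, -2.46 and -2.37 on array a. On array b it read -0.49, -1.66, -2.45, -2.51 and -2.56. Against the 37 °C culture it had fallen 2.01-fold at 5 min and 7.51-fold at 30 min, and the arrays of 60 min spanned those of 30 and 45 min. The size of the heat shock rise and the order of its times varied with the normalisation. With no curve array b at 5 min, at 1.07, lay above array a at 15 and 30 min, at 0.96 and 0.87. Scaled on the external control spots, arrays a and b read 0.66 and 1.32 at 5 min and 0.85 and 0.72 at 15 min. With no within-array curve the change at 15 min was 1.06 and with a curve through the external control spots 0.79, and under these settings HSC82 was no longer called at 45 min (0.48 and 0.63) or 60 min (0.29 and 0.74), nor with no curve at 5 min (0.76). The fall at 60 min of cooling was -2.95 with block curves and -2.32 on the control spots, and HSC82 kept its call there under all 5 other normalisations.

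HSP82, the gene known for heat induction of Hsp90 (YPL240C), was called higher at every time, but its arrays lay apart at 5, 15, 30 and 60 min of heat shock. On array a its values at 5, 15, 30, 45 and 60 min were 0.62, 0.42, 0.60, 0.78 and 0.58. On array b they were 1.75, 1.695, 1.62, 1.03 and 1.35, above array a at every time. The gap was smaller at 45 min. Before the shift to 30 °C the culture was at 0.61 and 0.65. On array a HSP82 fell through -0.76, -1.69, -2.36 and -2.45 to -2.48 at 60 min of cooling. On array b the same times gave -0.50, -1.53, -2.17, -2.30 and -2.46. The fall was 2.39-fold at 5 min (-1.26, standard error 0.276, adjusted p = 0.00094) and 8.58-fold at 60 min. The standard error of every HSP82 value includes the gap between the heat shock arrays, since the spread is pooled over conditions.

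The heat shock values of HSP82 depended on how the arrays were normalised. On the mean over all arrays 6 of the 256 gene spots in its block were brighter than HSP82, and for HSC82 4 of 272. With 1 curve for the whole array, HSP82 at 15 min was at 2.32 on array a and 2.27 on array b, and with no curve at 1.45 and 1.62. The gap between arrays was thus 1.27 with the block curves and was not seen at that size under the settings that do not use blocks. The normexp background correction kept the block curves and the gap, with 0.44 and 1.72, as did the log2 ratios that the authors deposited, with 0.31 and 1.85. The fitted change at 15 min was 1.06 (standard error 0.195, adjusted p = 0.00011) with block curves and 2.30 with 1 curve per array. HSP82 kept its call under all 5 other normalisations at every heat shock time. Without array b at 15 min it was 0.62 and not called.

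**Figure D2:**
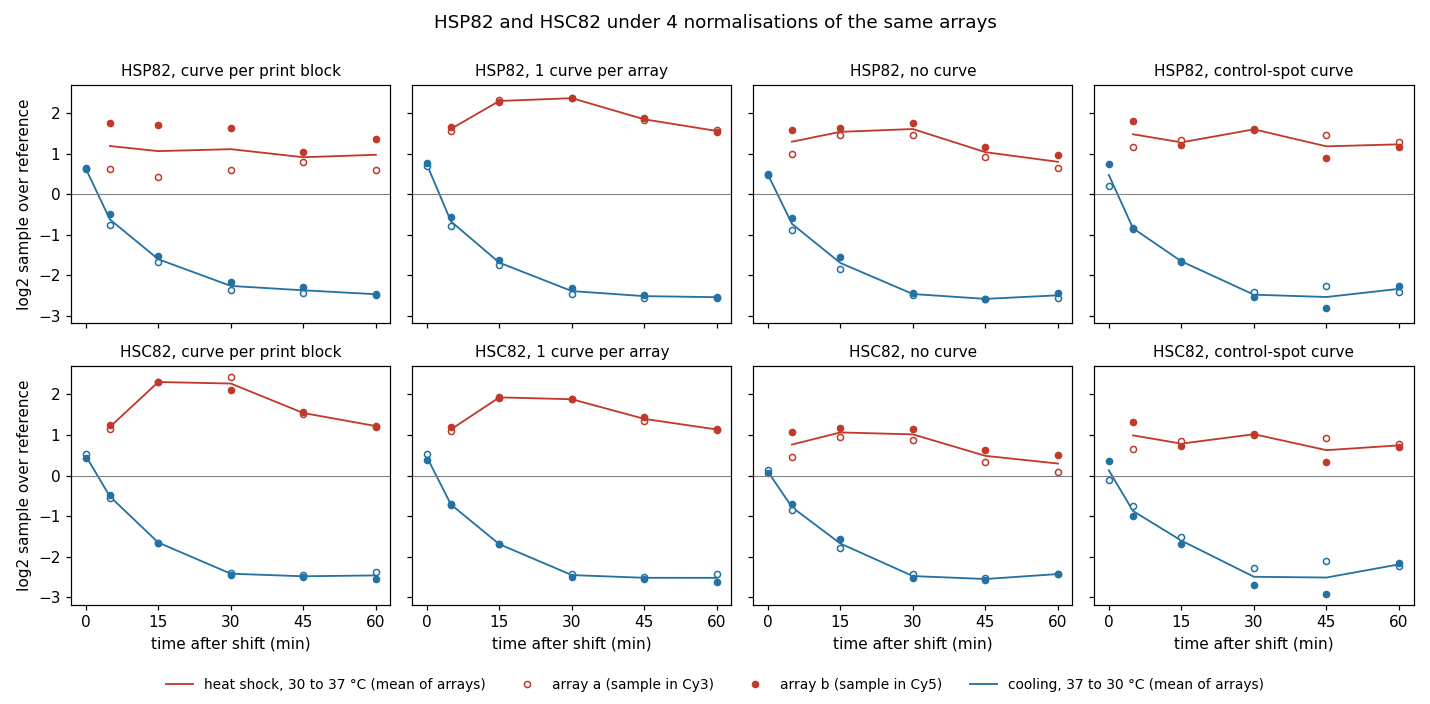
Log2 ratio of sample over reference (vertical axis) against minutes after the shift (horizontal axis) for HSP82 (upper row) and HSC82 (lower row) with a curve per print block, 1 curve per array, no curve and a curve through external control spots, with heat shock in red, cooling in blue, open points for array a and filled points for array b. At 15 min of heat shock HSP82 read 0.42 and 1.695 with block curves but 2.32 and 2.27 with 1 curve per array, and after 60 min of cooling both genes lie below 0 in all 4 panels.

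Whether HSP82 or HSC82 rose more in heat shock was not settled by these arrays. The difference of the log2 ratios, HSP82 minus HSC82, was -1.25 at 15 min with block curves (standard error 0.201, adjusted p = 2.8e-05) and -1.16 at 30 min. It was 0.37 at 15 min with 1 curve per array, 0.47 with no curve and 0.49 on the control spots, the opposite sign. After 60 min of cooling the genes stood at the same distance from the reference within the error, with a difference of -0.01 and a 95% interval from -0.43 to 0.42. The sequences of the probes were not used here, and the genes are near-identical copies, so signal from one on the probe of the other was not tested.

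STI1, the homologue of mammalian Hop that couples Hsp70 to Hsp90 (YOR027W), had the highest values of the 10 with block curves from 5 to 45 min of heat shock, and at 60 min its arrays overlapped with those of AHA1. Its values at 5, 15, 30, 45 and 60 min were 2.35, 2.92, 2.93, 2.10 and 1.95 on array a and 2.56, 2.72, 2.83, 2.05 and 1.74 on array b. Its level was already 5.48-fold above the reference at 5 min (2.46, standard error 0.0560, adjusted p = 2.0e-15) and 7.37-fold at 30 min. The 37 °C culture had 1.06 and 1.00. In cooling it read -1.24, -1.72, -1.84, -1.74 and -1.78 on array a and -1.17, -1.94, -1.88, -1.86 and -1.84 on array b. The fall against the 37 °C culture was 4.72-fold at 5 min and 7.25-fold at 15 min, and later times overlapped with 15 min.

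CPR6, a cyclophilin with TPR repeats (YLR216C), was raised in heat shock as STI1 was, and its relative CPR7 (YJR032W) was not. CPR6 was at 1.94, 2.46, 2.47, 1.80 and 1.67 on array a in heat shock and at 1.99, 2.29, 2.37, 1.74 and 1.60 on array b. It was at 0.93 and 1.06 in the 37 °C culture. In cooling it read -0.23, -1.20, -1.61, -1.63 and -1.55 on array a and -0.17, -1.17, -1.70, -1.71 and -1.40 on array b, and the fall reached 6.33-fold at 45 min (-2.66, standard error 0.0662, adjusted p = 1.0e-13). CPR7 read -0.43, -0.60, -0.40, -0.29 and -0.30 in heat shock on array a and -0.43, -0.53, -0.36, -0.21 and -0.25 on array b. It was below the reference on all 22 arrays and under the fold threshold in every comparison. In cooling its change against the 37 °C culture lay between -0.04 and -0.00, and at 45 min, where it was lowest, the 95% interval ran from -0.11 to 0.04.

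The difference between CPR6 and CPR7 was tested on the same arrays, by entering the difference of their log2 ratios as a row of the fit. CPR6 minus CPR7 was 2.39 at 5 min of heat shock, 2.94 at 15 min (standard error 0.0471, adjusted p = 3.4e-17), 2.80 at 30 min, 2.02 at 45 min and 1.92 at 60 min. It was 1.27 in the 37 °C culture and -1.20 after 60 min of cooling, so the genes changed places relative to the reference. No normalisation turned the sign of these differences.

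With block curves CNS1, an essential TPR co-chaperone (YBR155W), crossed the level of the reference during heat shock. It was below the reference at 5 and 15 min of heat shock, with -0.41 and -0.48 on array a and -0.24 and -0.50 on array b. At 30, 45 and 60 min it was above it, with 0.08, 0.47 and 0.27 on array a and 0.11, 0.26 and 0.28 on array b. The change at 30 min was 0.09, with a 95% interval from -0.03 to 0.22. With block curves the arrays of 5 and 15 min did not overlap with those of the later times. With no curve array b at 5 min was at 0.07, above the reference and above array a at 60 min, at 0.06. The difference between 60 and 15 min was 0.76 (standard error 0.0851, adjusted p = 9.9e-07), a 1.69-fold change that lies just under the fold threshold. It passed on the control spots, with 0.96, and with the deposited ratios, with 0.78, and was smallest with no curve, with 0.54. CNS1 was at 0.39 and 0.42 in the 37 °C culture. On all cooling arrays it lay between 0.23 and 0.67, with no call.

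AHA1, which stimulates the ATPase of Hsp90 (YDR214W), rose early and stayed high. Its values in heat shock were 2.07, 2.27, 2.31, 1.83 and 1.75 on array a and 2.31, 2.10, 2.43, 1.79 and 1.88 on array b, and it was 4.55-fold above the reference at 5 min (2.19, standard error 0.0544, adjusted p = 5.1e-15). Arrays of 5 and 15 min overlapped, and both arrays of 30 min lay above them. HCH1, a shorter relative of AHA1 (YNL281W), climbed more slowly. It read 0.80, 1.42, 1.97, 1.498 and 1.23 on array a and 1.04, 1.42, 1.94, 1.55 and 1.303 on array b, with its highest values at 30 min on both arrays. AHA1 minus HCH1 was 1.27 at 5 min (standard error 0.0424, adjusted p = 1.9e-13), and then 0.76, 0.42, 0.29 and 0.55 at the later times.

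In the 37 °C culture these ATPase activators had the highest values of the 10 genes with block curves. AHA1 was at 1.28 and 1.43 on arrays a and b and HCH1 at 1.09 and 1.23, where no array of another member was above 1.06. In cooling AHA1 read -0.64, -1.39, -1.38, -1.48 and -1.40 on array a and -0.61, -1.40, -1.49, -1.53 and -1.31 on array b. HCH1 read 0.04, -0.40, -0.88, -0.94 and -0.95 on array a and 0.16, -0.34, -0.89, -0.89 and -0.87 on array b. At 5 min HCH1 was thus back near the reference while AHA1 had passed below it. The fall against the 37 °C culture at 60 min was 6.53-fold for AHA1 and 4.20-fold for HCH1.

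SBA1 is the yeast p23 that holds Hsp90 in its ATP-bound form (YKL117W), and CDC37 the essential co-chaperone that recruits kinases (YDR168W). With block curves both had small and passing rises. SBA1 read 0.41, 0.92, 0.83, 0.29 and 0.36 on array a and 0.35, 0.87, 0.88, 0.48 and 0.21 on array b. CDC37 read 0.69, 0.99, 0.92, 0.49 and 0.33 on array a and 0.57, 0.82, 0.75, 0.35 and 0.10 on array b. Both were called at 15 min, at 1.86-fold for SBA1 (standard error 0.0453 on the log2 scale, adjusted p = 2.3e-11) and 1.88-fold for CDC37, and at 30 min. Scaling on the control spots ended the calls at 15 min, with 0.59 for SBA1 and 0.68 for CDC37, and that of SBA1 at 30 min, with 0.76. With 1 curve per array SBA1 was higher, at 1.34 at 15 min and 1.32 at 30 min, and was also called at 45 min, with 0.89. SBA1 was at 0.09 and -0.04 in the 37 °C culture and CDC37 at -0.02 and -0.15. In cooling SBA1 lay between -0.46 and -0.13 and CDC37 between -0.56 and -0.19 on all arrays.

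Cells of the culture grown at 37 °C had raised levels of STI1, of CPR6 and of both ATPase activators. In the 37 °C culture 4 of 10 genes were called higher than the reference, STI1, CPR6, AHA1 and HCH1, where 2.18% of all genes were. The changes were 2.04-fold, 1.99-fold, 2.56-fold and 2.24-fold. HSP82 was at 0.63 (standard error 0.195, adjusted p = 0.0097), under the fold threshold. STI1 and CPR6 lost their calls when the arrays were scaled on the control spots, at 0.73 each. The median of the 10 genes was 0.56.

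HSC82 and STI1 fell again within the hour of heat shock. Between 15 and 60 min 2 of 10 were called lower, where 5.1% of all genes were, HSC82 with -1.09 (standard error 0.0728, adjusted p = 2.7e-09) and STI1 with -0.97. CPR6 changed by -0.74, CDC37 by -0.69 and SBA1 by -0.61, under the fold threshold, and AHA1 by -0.37 and HCH1 by -0.15. HSP82 changed by -0.09 with block curves and by -0.74 with 1 curve per array, and was called under neither. On the control spots the changes of HSC82 and STI1 were -0.04 and -0.27, and neither was called. CPR6 passed the threshold with 1 curve per array (-0.89), with no curve (-0.88) and with the deposited ratios (-0.77). On the control spots CPR6 changed by only -0.31. Set directly against the 37 °C culture, 60 min of heat shock had 1 of 10 genes called higher, where 1.37% of all genes were. It was STI1, with 0.81 (standard error 0.0792, adjusted p = 1.3e-06), and the call was lost with no within-array curve, at 0.48, and without array a of 60 min, at 0.74. HSP82 was at 0.34, and at 0.82 and called with 1 curve per array. HSC82 was at 0.73 and CPR6 at 0.64 in this comparison (CPR6 at 0.91 and called on the control spots), and HCH1 at 0.11 with a 95% interval from -0.01 to 0.22.

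Back at 30 °C, the 6 heat-responsive genes ended below the untreated reference. After 60 min of cooling 6 of 10 were called lower than the reference, where 1.83% of all genes were. HSC82 was 5.52-fold lower (-2.47, standard error 0.0515, adjusted p = 2.5e-14) and HSP82 5.55-fold lower (-2.47, standard error 0.195, adjusted p = 3.3e-08). STI1 was 3.51-fold, CPR6 2.78-fold, AHA1 2.55-fold and HCH1 1.88-fold lower. These genes kept their calls under all 5 other normalisations, and HSC82 stayed between -2.53 and -2.19 over them. The other 4 genes lay between -0.31 for SBA1 and 0.42 for CNS1. HSC82 had moved by 4.79 on the log2 scale between its highest condition, 15 min of heat shock, and its lowest, 45 min of cooling, and STI1 by 4.74.

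**Figure D3:**
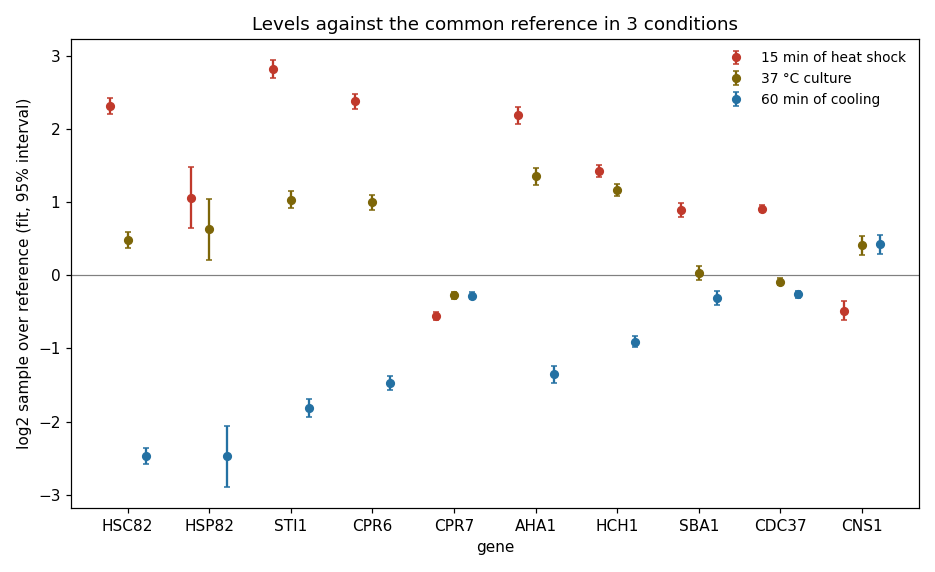
Fitted log2 ratio of sample over reference (vertical axis) with its 95% interval for each of the 10 genes (horizontal axis) after 15 min of heat shock (red), in the 37 °C culture (brown) and after 60 min of cooling (blue). HSC82 stands at 2.31, 0.49 and -2.47 in these conditions, the intervals of HSP82 are the widest, and CPR7 stays within -0.56 and -0.28.

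The genes reached these levels at different speeds. Of the fall that each showed at 60 min of cooling, STI1 had completed 81.0% on array a and 76.4% on array b at 5 min, and AHA1 71.6% and 74.5%. HCH1 had completed 51.7% and 51.1%, CPR6 46.7% and 50.2%, HSP82 44.2% and 36.9%, and HSC82 37.3% and 30.9%. STI1 and AHA1 were therefore ahead of the other 4 on both arrays. Over all 6 normalisations and both arrays the share of STI1 and AHA1 was at least 69.8% and that of the other 4 genes at most 61.6%. At 15 min STI1 stood at 97.7% and 103% of its fall and AHA1 at 99.5% and 103%, while HSC82 stood at 75.3% and 69.9%. These shares are descriptions on the log2 scale and were not tested.

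The late changes of STI1, CDC37 and CNS1 differed between the shifts with block curves. The change from 15 to 60 min in heat shock minus the same change in cooling was called lower for STI1 (-0.99) and CDC37 (-0.92), where 8.82% of all genes were. It was called higher for CNS1 (0.85), where 8.79% were. These counts of 2 and 1 in 10 do not set the Hsp90 genes apart from all genes. On the control spots STI1 (-0.51) and CDC37 (-0.58) were not called, and with no curve CNS1 (0.68) was not. STI1 changed by -0.97 over this time in heat shock and by 0.01 in cooling. CDC37 changed by -0.69 and 0.23, and CNS1 by 0.76 and -0.10.

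Over the 11 conditions, HSC82, HSP82, STI1, CPR6, AHA1 and HCH1 had similar profiles, with Pearson correlations of their condition means between 0.95 and 0.99. These genes were grouped by their calls in the same conditions, so high correlations among them follow in part from that choice. SBA1 and CDC37 correlated with each other at 0.97. With the genes named first, SBA1 correlated at 0.859 (HSP82) to 0.940 (STI1) and CDC37 at 0.833 (HSP82) to 0.947 (STI1). The lowest value among the genes named first was 0.952, for STI1 with HCH1. The ranges thus nearly met, and the correlations do not mark off SBA1 and CDC37 as a separate group. CPR7 and CNS1 correlated with each other at 0.91 and negatively with every other member, CNS1 at between -0.83 and -0.49. The conditions share the reference and the points of a time course are not independent, so these are descriptions. Of all genes, those closest to HSC82 over the 11 conditions were GRX1 (0.994), CPR6 (0.994), HSP26 (0.993), HOR7 (0.992) and ENO2 (0.992). Closest to HSP82 were YHI9 (0.989), RDS1 (0.985), ENO1 (0.984), HSP26 (0.983) and CPR6 (0.983). The likeness to HSP82 was taken with block curves, and of these genes YHI9 was at -0.05 and ENO1 at 0.44 at 15 min of heat shock, where HSP26, a small heat shock protein gene, was at 5.15.

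The cytosolic Hsp70 and Hsp40 chaperones and the disaggregase Hsp104, which act before Hsp90 on many proteins, were in part called higher in heat shock and lower in cooling. Of 11 listed genes 10 were measured. At 5, 15, 30, 45 and 60 min of heat shock 6, 5, 6, 5 and 5 were called higher, where 6.87%, 8.92%, 7.7%, 4.12% and 3.73% of all genes were. At 15 and 30 min 1 was called lower, SSB2, where 9.33% and 7.02% of all genes were. In cooling 5, 6, 6, 6 and 7 were called lower than in the 37 °C culture, where 3.2%, 5.49%, 4.42%, 4.16% and 3.48% were. SSA4, a heat-inducible Hsp70 gene, was the highest at 15 min with 5.51 (standard error 0.0929, adjusted p = 4.9e-17), and SSB2, a ribosome-bound Hsp70 gene, the lowest with -1.11. After 60 min of cooling 5 were called lower than the reference, where 1.83% of all genes were, and SSA4 was at -0.62, under the fold threshold. Members of these Hsp70 families share long stretches of sequence, and signal between their probes was not tested.

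A further 10 co-chaperones and Hsp90-associated proteins were measured, and most were not called. At 15 min of heat shock 1 of 10 was called higher, against 8.92% of all genes, and 2 lower, against 9.33%. These counts do not set the list apart from all genes. FES1, a nucleotide exchange factor of Hsp70, was higher with 0.89, after 2.17 at 5 min. SNL1, named after its value was seen, was lower with -0.82. PPT1, the phosphatase that acts on Hsp90, fell by 0.88 at 5 min, 1.62 at 15 min (standard error 0.0632, adjusted p = 8.7e-13) and 1.01 at 30 min. In cooling 0 of the 10 were called in limma's test. In these comparisons 3.2% to 5.49% of all genes were called lower, and 45 to 156 of 5315 genes higher. An unadjusted p below 0.05 was met by 5 to 9 of the list at each time. Of all genes 59.4% to 66.9% passed even the adjusted p there, so these counts do not set the list apart. Medians of the list lay between -0.09 and 0.00, and PPT1 was at 0.64 at 5 min. Of 7 genes for Hsp90 clients 1, the cell wall MAP kinase gene SLT2, was called higher from 15 min of heat shock on. SLT2 was at 1.47 at 15 min and 1.85 at 30 min. Of all genes 8.92%, 7.7%, 4.12% and 3.73% were called higher at 15, 30, 45 and 60 min. A count of 1 in 7 does not set the client genes apart from all genes. The lowest at 15 min was SWE1, a kinase gene of the G2 checkpoint, with -0.51. HSF1, which encodes the heat shock factor and is itself a client, was at 0.52 at 15 min, 0.42 in the 37 °C culture and 0.09 after 60 min of cooling, and was called in none of these.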

How the data were processed

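RNA of 11 conditions was hybridised with a common reference to 2-colour spotted arrays, 2 arrays of opposite dye per condition. The scanner files, as deposited by the authors, hold the mean intensity of 15552 spots in each channel, with no background subtracted. The authors also deposited a normalised log2 ratio per array, made by print-tip loess and a gene-specific dye correction. These ran opposite to the scanner signals on 3 of 22 arrays and were turned, and they served as an alternative. The authors' own table of comparisons, with fold changes and p-values, was not used, and the submitters' processing notes name limma 2.12.0. The files name no genome build, and no coordinates or sequences are given.

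Here the log2 ratios, sample over reference, were made from the intensities by print-tip loess (limma 3.58.1 in R 4.3.3, span 0.4) over the gene spots of each block. Signals above 32768 had no weight in these curves. Duplicate spots were averaged, and a gene with several probes was read from its brightest. The 22 arrays entered 1 linear model (lmFit, eBayes) that estimates every condition and the dye effect. Benjamini-Hochberg adjustment ran over the 5326 probes with a symbol. Differences between related genes entered this fit as further rows. Of 6388 gene probes, those with no symbol were left out, and 54 symbols were updated through the RefSeq gene table, which was used for names alone. The array letter marks the dye order. Between pairs of conditions the differences of array a minus b correlated at -0.13 to 0.81, so the letter was not taken to pair cultures.

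Named were the 10 members, the highest and the lowest gene of each of 3 further lists at 15 min of heat shock with HSF1, and the 5 genes most correlated with HSP82 and with HSC82. Members and lists were chosen with earlier results of these data known. The steps were tested on simulated data. Alternatives covered the background correction, the curve, control spots, deposited ratios, the dye term, dim probes, thresholds, the baseline and each left-out array. The control spots reach a log2 intensity of 10.8, and their curve is extrapolated for brighter probes such as those of HSC82 and HSP82.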

Additional observations from a re-analysis of the deposited data

Results flagged for a closer look

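The late part of the time course differed between heat shock and cooling for 3 of the 10 genes with block curves, by a test of the difference in limma's fit over all genes. For STI1 the change from 15 to 60 min in heat shock minus that in cooling was -0.99 (standard error 0.112, adjusted p = 1.3e-06). For CDC37 it was -0.92 (standard error 0.0472, adjusted p = 1.7e-10). For CNS1 it was 0.85 (standard error 0.120, adjusted p = 1.3e-05). Of all genes 8.82% were called lower and 8.79% higher in this test, and the counts of 2 and 1 in 10 do not set these genes apart from all genes. Other settings were chosen after seeing the data. On the external control spots STI1 was at -0.51 (adjusted p = 0.24) and CDC37 at -0.58 (adjusted p = 0.047), under the fold threshold, and with no within-array curve CNS1 was at 0.68 (adjusted p = 0.025), also under it. The calls were kept under the remaining normalisations, without the dye term and with each array left out.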

How the results depend on the processing

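The members called in heat shock against the reference and in cooling against the 37 °C culture were the same in number, within 1.5 times, under the other normalisations, without dim probes and with each array left out. Without the replicate block, that is the dye term, 8 members were called at 15 min of heat shock and 6 at 60 min of cooling, as with it, and no count of members moved. The members called higher at 60 min of heat shock than in the 37 °C culture were 2 with 1 curve per array, 0 with no curve, 2 on control spots, 0 at more than 2-fold, 6 with no fold threshold and 0 to 1 with an array left out. Over all 5315 genes the counts were 74, 54, 125, 37 and 1225 in the same order, up to no fold threshold. Lower at 60 than at 15 min were 0 on control spots, 1 at more than 2-fold and 7 with no fold threshold. Of all genes 119, 154 and 1815 were lower under these settings. Higher at 60 than at 15 min were 1 on control spots, 1 with the deposited ratios, 2 with no fold threshold and 0 to 1 with an array left out. Of all genes 786, 283 and 1844 were higher in the same order, up to no fold threshold. In the 37 °C culture 2 were called higher on control spots, and 7 higher and 2 lower with no fold threshold. There 113 of all genes were higher on control spots, and 1935 higher and 1716 lower with no fold threshold. With no fold threshold 2, 2, 1, 1 and 1 were lower in heat shock, 1 was higher at 5 min of cooling and 1 higher than the reference at 60 min of cooling. Of all genes 2093, 2195, 2142, 1898 and 1798 were lower in heat shock without it. In these cooling comparisons 1669 and 1687 of all genes were higher. With the 37 °C culture as the baseline of heat shock, 3 were higher at 5 min, 3 at 45 min and 1 at 60 min, and 1 was lower at 15 min. Of all genes 310, 108 and 73 were higher at 5, 45 and 60 min, and 455 lower at 15 min. With block curves HSP82 was not called at any time against this baseline, with adjusted p from 0.084 to 0.42 in limma's test. With 1 curve per array it was at 0.82 against this baseline at 60 min, and called. Against the reference that curve put HSP82 at 2.30 at 15 min of heat shock and at 0.74 in the 37 °C culture.

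HSP82 minus HSC82 turned sign in heat shock. At 5, 15, 30, 45 and 60 min it was 0.47, 0.37, 0.48, 0.45 and 0.42 with 1 curve per array. With no curve it was 0.53, 0.47, 0.59, 0.55 and 0.50, and on control spots 0.48, 0.49, 0.58, 0.55 and 0.48. With an array left out it ran from -0.30 to 0.27 at 5 min, from -0.075 to 0.36 in the 37 °C culture and from -0.18 to 0.17 after 60 min of cooling, where the deposited ratios gave 0.0058. HSP82 at 60 against 15 min ran from -0.53 to 0.35.

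The other turns of sign were of uncalled values, apart from HCH1 at 5 min against the 37 °C culture (-0.25). Against that baseline CNS1 was at -0.31, -0.043 and -0.14 at 30, 45 and 60 min and CPR7 at 0.029 at 45 min. CNS1 at 30 min of cooling was 0.022 with 1 curve per array, 0.053 on control spots, 0.016 with the deposited ratios and -0.13 to 0.12 with an array left out. At 45 min it was 0.083 on control spots and -0.16 to 0.032, and at 60 min -0.060 to 0.093. CPR7 on control spots was 0.0055 at 45 min and 0.067 at 60 min, where it ran from -0.013 to 0.0084. At 60 min of heat shock against the 37 °C culture HCH1 was -0.17 with no curve, CNS1 0.12 and CPR7 0.19 on control spots, and CPR7 ran from -0.0044 to 0.00096. SBA1 in the 37 °C culture was -0.045 with no curve, -0.11 on control spots and -0.022 to 0.073 with an array left out. AHA1 and HCH1 at 60 against 15 min were 0.060 and 0.21 on control spots. The cause of these changes was not tested. Over all genes, control spots gave 400 higher and 749 lower at 15 min of heat shock, against 474 and 496. At more than 2-fold 311 were higher, and with no fold threshold 2227. A scan batch could not be run, as the files used give none.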
